A study of Homo sapiens with 9 samples.

Results

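Keratins, the intermediate filament proteins of epithelial cells, were examined in human 293T cells that had received 1 of 2 CIC fusion oncogenes or an empty plasmid. Members were all genes with the symbol KRT followed by a number and at most 1 letter from A to C, which left out keratin-associated proteins and pseudogenes. The rule gave 55 genes, 29 type I and 26 type II, among the 62700 genes counted. At least 1 read was counted for 38 of them in the 9 libraries, and 17 (5 type I and 12 type II) were at 0 throughout. Only 9 keratins passed the filter on low counts and were tested, among 17576 tested genes: KRT8, KRT10, KRT12, KRT18, KRT20, KRT25, KRT31, KRT37 and KRT222.

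A keratin filament is built from obligate pairs of a smaller acidic type I chain and a larger, more basic type II chain, so a cell normally makes a member of each type. KRT18 and KRT8 are the pair of simple epithelia, while other pairs belong to stratified epithelia, hair or the inner root sheath around the growing hair. KRT20 is a type I keratin known from differentiated cells of the intestinal lining, the umbrella cells of the urothelium and the Merkel cells of the skin, and it serves as a marker of tumours from these sites. Type I genes lie together on chromosome 17 and type II genes on chromosome 12, with KRT18 as the exception that sits beside its partner KRT8. CIC, or Capicua, is an HMG-box repressor that binds short octamers in DNA, and its fusions to DUX4 or NUTM1 in sarcomas act as activators.

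293T is an established line derived from human embryonic kidney that carries the SV40 large T antigen. The 3 groups, each with 3 libraries, were cells transfected with empty vector, with a plasmid for HA-CIC::DUX4, or with a plasmid for HA-CIC(ex20)::NUTM1(ex6), written here as CIC::DUX4 and CIC::NUTM1. Replicates were transfected on different days and RNA was taken about 48 hours later, then selected for polyA tails and sequenced. All 3 groups were exposed to transfection and plasmid DNA, the cells were a single line that kept its own genes, and the promoter that drove the inserts is not given in the sources used here. Library totals ran from 16970771 to 33655445 counts, and the empty vector libraries together held more counts (75895628) than those of CIC::DUX4 (63453681) or CIC::NUTM1 (63407999). Markers of the line were present in every library: the lowest count was 80 for PAX2, and KRT18 had at least 924.

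The first CIC::DUX4 library stood apart in epithelial genes. It held 72 counts of the splicing factor ESRP1 against 0 to 2 in the other 8 libraries, 139 of the adhesion protein EPCAM against 13 to 59, 226 of E-cadherin (CDH1) against 65 to 127, and 37 of the protease ST14 against 0 to 14. It also carried 58 of the 60 counts of KRT19. The part of these epithelial genes in keratin results was not tested, so values without that library are given where it bears on a call.

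The promoter sequences of KRT20 and of 3 other type I keratins that were silent with empty vector and detected with both fusions are shown because these genes lie in 1 cluster and the fusions carry a DNA-binding partner with a known octamer. Each run is the 250 bases before the RefSeq transcription start (GRCh38.p14, minus strand, 5′ to 3′). Capitals mark the octamers TGAATGAA or TGAATGGA on either strand and the TATA-box letters TATAAA, likewise on either strand.
KRT20, chr17:40885243-40885492: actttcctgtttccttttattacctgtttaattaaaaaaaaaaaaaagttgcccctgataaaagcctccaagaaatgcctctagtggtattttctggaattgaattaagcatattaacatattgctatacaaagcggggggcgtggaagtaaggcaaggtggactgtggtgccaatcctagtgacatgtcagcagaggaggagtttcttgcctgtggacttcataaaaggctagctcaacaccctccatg
KRT12, chr17:40867224-40867473: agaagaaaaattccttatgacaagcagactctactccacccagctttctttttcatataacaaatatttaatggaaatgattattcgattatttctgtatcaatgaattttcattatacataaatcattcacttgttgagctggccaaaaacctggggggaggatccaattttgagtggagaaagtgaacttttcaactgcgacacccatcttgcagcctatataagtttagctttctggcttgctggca
KRT25, chr17:40755332-40755581: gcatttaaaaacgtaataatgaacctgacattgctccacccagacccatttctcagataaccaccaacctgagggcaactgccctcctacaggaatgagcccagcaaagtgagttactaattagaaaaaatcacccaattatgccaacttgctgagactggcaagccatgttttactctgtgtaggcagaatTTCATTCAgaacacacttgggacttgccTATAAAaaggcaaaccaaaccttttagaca
KRT37, chr17:41424586-41424835: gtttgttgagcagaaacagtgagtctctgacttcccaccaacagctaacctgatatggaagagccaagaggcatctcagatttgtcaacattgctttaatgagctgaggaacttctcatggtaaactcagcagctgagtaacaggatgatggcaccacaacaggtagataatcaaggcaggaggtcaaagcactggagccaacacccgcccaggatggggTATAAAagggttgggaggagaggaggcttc
KRT20 and KRT12 had no exact match to either pattern in these letters. Other forms of the TATA box were not searched. Close to its start the KRT12 run holds tatata and the KRT20 run cataaa, each a single letter from TATAAA. Other octamers that CIC may bind were not searched. The KRT12 run holds tcaatgaa and the KRT20 run tgaattaa, each of which differs from TGAATGAA in a single letter. KRT25 held TGAATGAA on the opposite strand (read above as TTCATTCA) and TATAAA close to its start, and KRT37 held TATAAA only.

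Over the wider windows of 250 bases before to 50 after each start, 34 of the 55 keratin symbols matched the RefSeq table, with 38 windows. TGAATGAA or TGAATGGA, the only octamers searched, was present in 3 of the 38 (7.89%), those of KRT8, KRT25 and KRT34. Over all genes 922 of 35116 windows (2.63%) held either. TATAAA was found in 21 of the 38 keratin windows (55.3%), 15 of 23 for type I and 6 of 15 for type II, against 11.5% of all windows. On the gene's own strand alone it was found in 19 of the 38, 15 of 23 for type I and 4 of 15 for type II, against 7.33% of all windows. These letter matches describe the sequence and do not show binding. KRT13, KRT18, KRT19 and KRT23 were among the symbols not matched.

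KRT20 showed the highest level of any keratin that was silent with empty vector, and it did so with both fusions (ENSG00000171431, chromosome 17, 40875889 to 40885242, minus strand, GRCh38.p14). Not a single read was counted in the 3 empty vector libraries. The CIC::DUX4 libraries held 456, 234 and 183 counts, and the CIC::NUTM1 libraries 731, 770 and 847. As CPM values, which relate a count to the TMM-scaled library size, these were 17.4, 11.2 and 10.8 CPM with CIC::DUX4 and 43.9, 29.5 and 43.9 CPM with CIC::NUTM1. Every fusion library was above every empty vector library, and every CIC::NUTM1 library was above every CIC::DUX4 library. Over all tested genes 14.8% had all CIC::DUX4 libraries above empty vector, 18.2% all CIC::NUTM1 libraries, and 12.6% all CIC::NUTM1 libraries above those of CIC::DUX4.

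KRT20 was called higher with each fusion in edgeR's quasi-likelihood test with Benjamini-Hochberg adjustment over all tested genes. That test is behind every adjusted p given here, with a threshold of 0.05. At 0 counts with empty vector, KRT20 passed the filter on low counts only through the fusion groups and so had to differ. Its adjusted p values against empty vector are therefore a description and lend no support. Mean levels were 13.1 ± 3.71 CPM (SD, n = 3) with CIC::DUX4 (adjusted p = 4.54e-08) and 39.1 ± 8.32 CPM (n = 3) with CIC::NUTM1 (adjusted p = 1.74e-09). Set against 3 counts in each empty vector library, the difference was at least 104-fold for CIC::DUX4 and at least 309-fold for CIC::NUTM1. Between the fusions KRT20 was 2.98-fold higher with CIC::NUTM1, a log2 difference of 1.56 ± 0.20 (SE, adjusted p = 0.000286). Both fusion comparisons with empty vector share the same 3 control libraries. In these bulk samples, more cells with KRT20 RNA and more KRT20 RNA per cell cannot be told apart.

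The share of KRT20 among all keratin counts does not depend on scaling between libraries. With empty vector it was 0 of 1869, 3356 and 2592 keratin counts, which allows shares of up to 0.161%, 0.0894% and 0.116%. With CIC::DUX4 it was 10.7%, 8.96% and 7.62%, with 95% exact Clopper-Pearson intervals of 9.76 to 11.6, 7.89 to 10.1 and 6.59 to 8.76. With CIC::NUTM1 it was 29.5%, 22.2% and 31.2%, with intervals of 27.7 to 31.3, 20.8 to 23.6 and 29.5 to 33.0, all clear of those for CIC::DUX4. These intervals and limits cover counting error only. Among type I counts alone the mean share was 11.1% ± 2.57 (SD, n = 3) with CIC::DUX4 and 29.7% ± 4.65 (n = 3) with CIC::NUTM1.

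**Figure D1:**
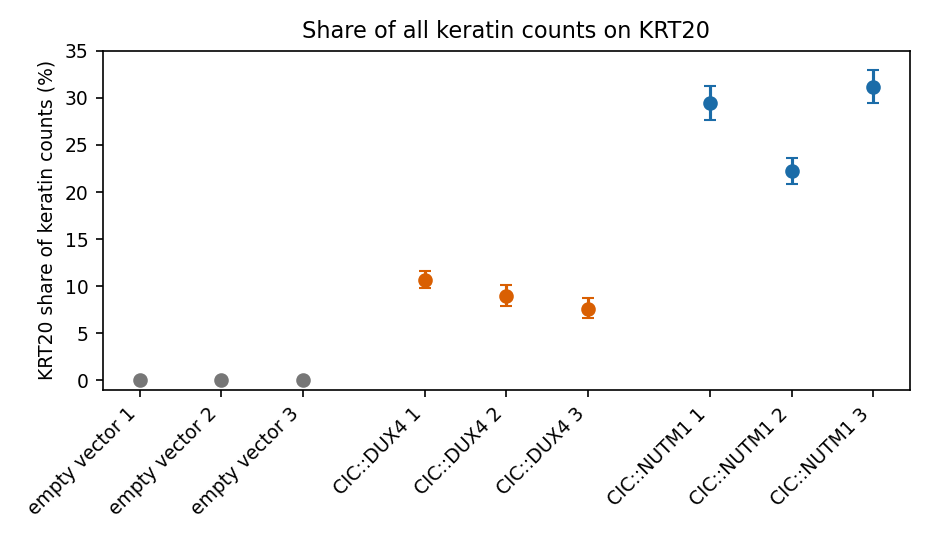
Share of KRT20 in each library as a percentage of all keratin counts, with 95% exact Clopper-Pearson intervals as error bars and libraries grouped by plasmid. The empty vector libraries are at 0, those of CIC::DUX4 between 7.62 and 10.7, and those of CIC::NUTM1 between 22.2 and 31.2.

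Per kilobase of exon (union of GENCODE 29 exons), KRT20 entered the range of the keratins that 293T cells already made. With empty vector the order of levels was KRT18 (19.4 CPM per kb), KRT10 (13.9), KRT8 (1.47) and KRT222 (0.136), with every other tested keratin at 0. With CIC::DUX4, KRT20 reached 7.11 ± 2.01 CPM per kb (SD, n = 3), between KRT10 at 15.7 and KRT8 at 3.62. With CIC::NUTM1 it reached 21.2 ± 4.51 CPM per kb (n = 3), beside KRT18 at 17.8 and KRT10 at 12.8. The gap between KRT20 and KRT18 in that group was smaller than the SD of KRT20, so their order per kilobase is not resolved. These places depend on the union exon length, 1846 bases for KRT20, 3218 for KRT18 and 6881 for KRT8. Such a union can exceed the transcript that is made. In CPM, KRT18 (55.0 to 60.9) was above KRT20 (29.5 to 43.9) in every CIC::NUTM1 library. With CIC::DUX4 the mean of KRT8 (24.9 CPM) was above that of KRT20 (13.1 CPM).

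**Figure D2:**
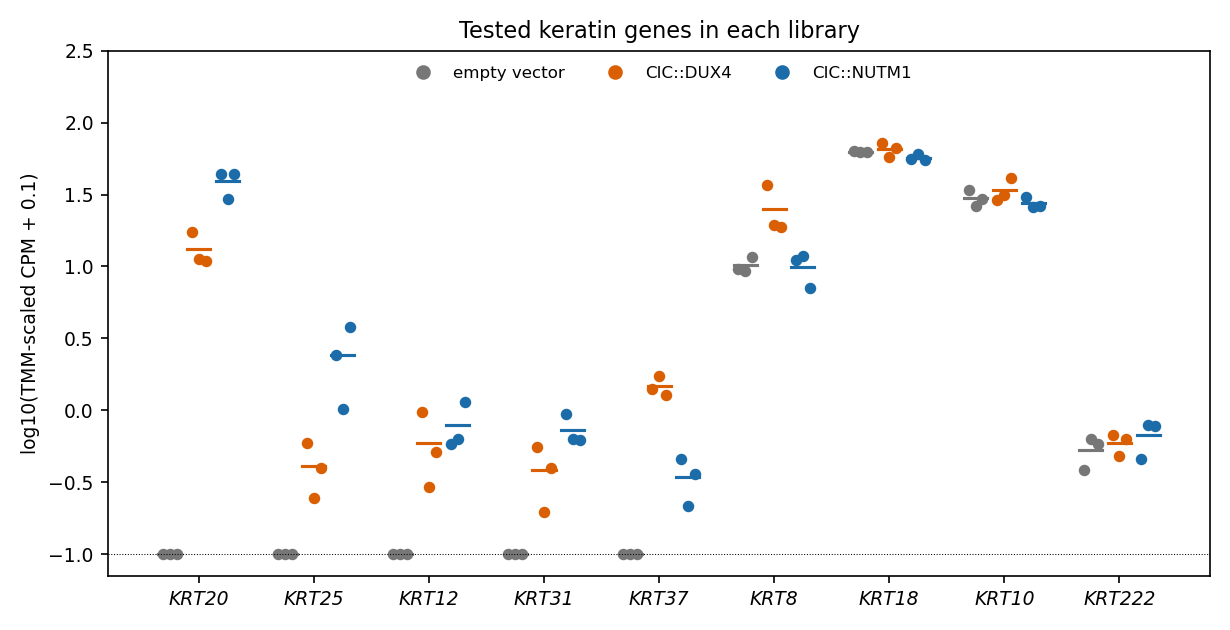
Level of the 9 tested keratins in each library, as log10 of TMM-scaled CPM plus 0.1, with 1 point per library, horizontal bars at the log of the group mean and a dotted line at 0 counts. KRT20, KRT25, KRT12, KRT31 and KRT37 sit on the dotted line in all 3 empty vector libraries and above it in all 6 fusion libraries.

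Among the 9 tested keratins, 6 were higher with CIC::DUX4 (KRT8, KRT12, KRT20, KRT25, KRT31 and KRT37), where 6.96% of all tested genes were called higher. With CIC::NUTM1, 5 were higher (KRT12, KRT20, KRT25, KRT31 and KRT37), where the share over all tested genes was 11.5%. No keratin was called lower in either comparison, against 1.27% and 3.83% of all tested genes, and edgeR gave 0 keratins lower at an unadjusted p under 0.05 too. DESeq2 and limma-trend also called 0 lower. The 5 keratins at 0 with empty vector passed the filter on low counts only through the fusion groups and so had to differ between groups. Their number and their adjusted p values against empty vector, here and below, are descriptions and lend no support.

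KRT25, an inner root sheath keratin (chromosome 17, 40748021 to 40755542), followed KRT20 in preferring CIC::NUTM1. It had 0 counts in every empty vector library, 13, 3 and 5 with CIC::DUX4, and 39, 24 and 71 with CIC::NUTM1. The CIC::NUTM1 libraries were all above those of CIC::DUX4. KRT25 rose with CIC::DUX4 (0.311 ± 0.177 CPM, SD, n = 3, at least 2.46-fold, adjusted p = 0.0062) and with CIC::NUTM1 (2.31 ± 1.38 CPM, at least 18.3-fold, adjusted p = 3.16e-06). Between the fusions it was 7.43-fold higher with CIC::NUTM1 (log2 2.82 ± 0.62, SE, adjusted p = 0.00538). The CIC::DUX4 call was lost without the first CIC::DUX4 library (adjusted p = 0.0512), and the difference between fusions without the third CIC::NUTM1 library (adjusted p = 0.103). KRT25 passed the filter on low counts only through the CIC::NUTM1 group. Its call between fusions is therefore a description too and lends no support.

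KRT37, a hair keratin (chromosome 17, 41420547 to 41424585), had the opposite preference. Counts were 0 in the empty vector libraries, 34, 34 and 20 with CIC::DUX4, and 6, 3 and 5 with CIC::NUTM1, so that all CIC::NUTM1 libraries were below all CIC::DUX4 libraries, as were those of 9.36% of all tested genes. It rose with CIC::DUX4 (1.37 ± 0.234 CPM, SD, n = 3, at least 10.8-fold, adjusted p = 1.98e-05) and with CIC::NUTM1 (0.245 ± 0.123 CPM, at least 1.93-fold, adjusted p = 0.00715). The log2 difference between the fusions was -2.52 ± 0.65 (SE, adjusted p = 0.0174), lower with CIC::NUTM1. That last call was kept in only 1 of the 6 fits that left out a single fusion library, with adjusted p from 0.0511 to 0.121 in the other 5. KRT37 passed the filter on low counts only through the CIC::DUX4 group, so its call between fusions is a description and lends no support. A fit of only CIC::NUTM1 and empty vector did not test KRT37.

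KRT12, the type I keratin of the corneal epithelium, and KRT31, a hair cortex keratin, rose with both fusions at low levels. KRT12 (chromosome 17, 40861303 to 40867223) had 0 counts with empty vector, 23, 4 and 7 with CIC::DUX4, and 8, 14 and 20 with CIC::NUTM1. It reached 0.494 ± 0.350 CPM (SD, n = 3, adjusted p = 0.00212, at least 3.90-fold) with CIC::DUX4 and 0.684 ± 0.306 CPM (adjusted p = 0.000478, at least 5.40-fold) with CIC::NUTM1. Without the first CIC::DUX4 library its CIC::DUX4 mean was 0.302 CPM, at least 2.38-fold higher, and it was still called (adjusted p = 0.0327). The 2 fusion groups overlapped, and the difference did not pass the test (log2 0.43 ± 0.68, SE, adjusted p = 0.817).

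KRT31 (chromosome 17, 41393721 to 41397608) had 0 counts with empty vector, 12, 2 and 5 with CIC::DUX4, and 14, 14 and 10 with CIC::NUTM1. It reached 0.283 ± 0.181 CPM (SD, n = 3, adjusted p = 0.0122, at least 2.23-fold) and 0.631 ± 0.181 CPM (adjusted p = 0.000654, at least 4.99-fold). In CPM its CIC::NUTM1 libraries (0.518 to 0.840) were above those of CIC::DUX4 (0.0958 to 0.458), yet the difference did not pass the test (log2 1.10 ± 0.73, SE, adjusted p = 0.470). The CIC::DUX4 call for KRT31 was lost without the first CIC::DUX4 library (adjusted p = 0.102), without empty vector library 2 or 3 (0.0681 and 0.0535), and with limma-trend (0.0953). Hair keratins are close copies of each other, so that reads of KRT31, KRT33A and their relatives may have been split between genes.

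The detected keratins were read next across the whole family, tested or not. With empty vector 48 of the 55 keratins were at 0 in all 3 libraries, 25 type I and 23 type II. Of the 25 silent type I genes, 9 (36.0%) had a count in all 3 CIC::DUX4 libraries and 9 (36.0%) in all 3 CIC::NUTM1 libraries. Of the 23 silent type II genes, 1 (4.35%) did so with CIC::DUX4, namely KRT7, and 0 with CIC::NUTM1. The same was seen for 5.63% and 7.54% of all 4084 protein-coding genes silent with empty vector. All 3 CIC::DUX4 and all 3 CIC::NUTM1 libraries held a count of 8 keratins (KRT12, KRT13, KRT20, KRT23, KRT25, KRT28, KRT31 and KRT37), each of them type I, or 16.7% of the 48 silent keratins against 3.47% of 4036 other silent coding genes. CIC::DUX4 libraries 2 and 3 alone, a looser criterion that cannot give fewer genes, both held a count of 11 of the 48 silent keratins and of 255 of the 4036 other silent coding genes.

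**Figure D3:**
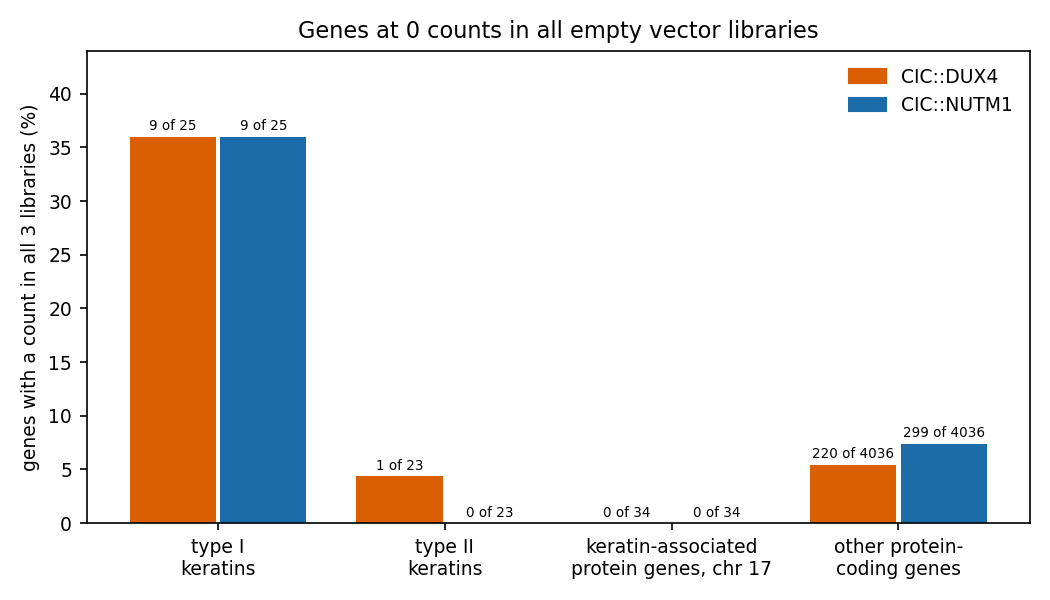
Percentage of genes at 0 in all empty vector libraries that had a count in all 3 libraries of each fusion, for type I keratins, type II keratins, keratin-associated protein genes and other protein-coding genes, with the number of genes above each bar. Type I keratins reach 36.0% with either fusion, type II keratins 4.35% and 0, and keratin-associated protein genes 0.

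Summed levels without KRT20 were low and similar with both fusions for type I. The other 24 silent type I keratins together reached 4.74 ± 1.77 CPM (SD, n = 3, 320 counts) with CIC::DUX4 and 5.76 ± 2.20 CPM (339 counts) with CIC::NUTM1, a difference below the SD of either group. The 23 silent type II keratins together reached 0.732 ± 0.239 CPM (48 counts) and 0.106 ± 0.0466 CPM (7 counts). KRT20 alone held 873 and 2348 counts in these groups, more than all other silent keratins combined.

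Along chromosome 17 KRT20 lies between KRT12, 8717 bases away, and KRT23, 37469 bases away on the other side. KRT23, a type I epithelial keratin, had 0 counts with empty vector, 6, 7 and 2 with CIC::DUX4, and 7, 3 and 10 with CIC::NUTM1. The hair keratins that follow were nearly silent: KRT39 had 2 counts in a single CIC::NUTM1 library and KRT40 had none. The keratin-associated protein genes in the same cluster, which make the matrix of the hair shaft, numbered 34, all at 0 with empty vector. Of these, 0 had a count in all libraries of either fusion, beside 5.63% and 7.54% of all silent coding genes, and the difference was not tested. Their total was 42 counts for CIC::DUX4 and 9 for CIC::NUTM1.

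**Figure D4:**
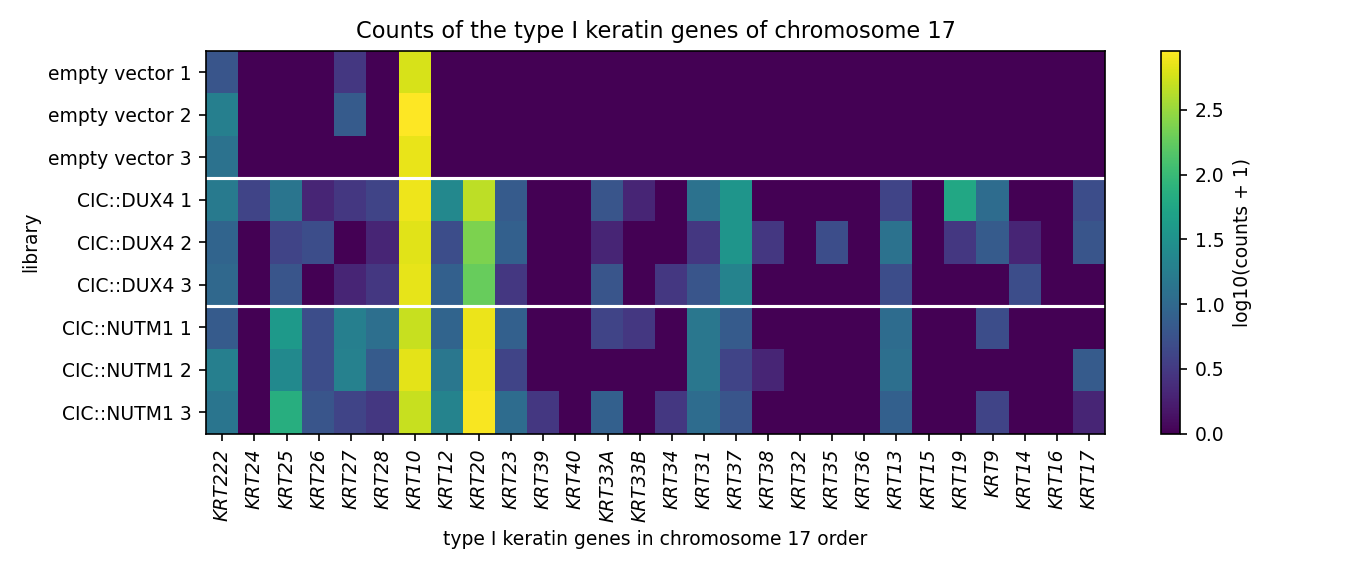
Heat map of the 28 keratin genes of the chromosome 17 cluster in chromosome order, with 1 column per gene, 1 row per library and colour for log10 of counts plus 1. KRT10 is high in every library, and KRT20 is high in the 6 fusion libraries, while its neighbours KRT12, KRT23 and KRT39 have at most 23, 10 and 2 counts in any library.

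Several untested type I genes of the cluster had more than 10 counts in a library. KRT13, of mucosal stratified epithelia, had 3, 12 and 4 counts with CIC::DUX4 and 10, 11 and 7 with CIC::NUTM1, and 0 with empty vector. KRT28, of the inner root sheath, had 3, 1 and 2 and then 11, 6 and 2, again with 0 in the empty vector group. KRT27, its neighbour, was already present with empty vector (2, 6 and 0 counts) and had 2, 0 and 1 with CIC::DUX4 and 18, 19 and 3 with CIC::NUTM1. KRT19, a simple epithelial type I keratin, had 58, 2 and 0 counts with CIC::DUX4 and 0 in the other 6 libraries, so it rests on 1 library. With no filter on low counts 10 keratins were called higher for CIC::DUX4 and 8 for CIC::NUTM1, where 4.18% and 6.22% of all genes were, and between fusions 3 were higher and 4 lower, where 2.71% and 1.14% were. The added genes were KRT7, KRT13, KRT19 and KRT23 for CIC::DUX4, KRT13, KRT23 and KRT28 for CIC::NUTM1, KRT27 as higher between fusions, and KRT7 and KRT19 as lower.

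The type II side of the filament was carried by KRT8, the partner of KRT18 (chromosome 12, 52897191 to 52949860). It had 166, 316 and 289 counts with empty vector, 967, 403 and 316 with CIC::DUX4, and 182, 305 and 134 with CIC::NUTM1. In CPM these were 9.50, 9.25 and 11.6, then 36.9, 19.3 and 18.6, then 10.9, 11.7 and 6.94. All CIC::DUX4 libraries were above the other 6, and the first of them was the highest. KRT8 rose 2.47-fold with CIC::DUX4 (log2 1.31 ± 0.27, SE, adjusted p = 0.0116) and was called without the first CIC::DUX4 library too (log2 0.91, adjusted p = 0.00249). Without empty vector library 1 or 2 the call was lost (adjusted p = 0.0555 and 0.0726).

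With CIC::NUTM1 the level of KRT8 was 9.84 ± 2.54 CPM (SD, n = 3) against 10.1 ± 1.28 with empty vector (log2 -0.03 ± 0.29, SE, adjusted p = 0.962). Directly compared, KRT8 was lower with CIC::NUTM1 than with CIC::DUX4 (log2 -1.34 ± 0.28, adjusted p = 0.014), a call lost without the first CIC::NUTM1 library (adjusted p = 0.0666). KRT8 has many processed pseudogenes, and these rows held 32.3 to 40.6% of the joint KRT8 and pseudogene counts with empty vector, 18.1 to 31.5% with CIC::DUX4 and 40.9 to 61.5% with CIC::NUTM1. With pseudogene counts added, KRT8 stayed called for CIC::DUX4 (log2 1.01, adjusted p = 0.00102) and between fusions (log2 -0.70, adjusted p = 0.022). Its difference for CIC::NUTM1 turned to 0.31, still not called (adjusted p = 0.294).

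KRT7, the type II partner of KRT19 in ductal epithelia, was the only other type II keratin with over 10 counts in a library. It had 20, 4 and 6 counts with CIC::DUX4 and 0 in the other 6 libraries. Its highest value was again in the first CIC::DUX4 library. Of the remaining 24 type II keratins, 12 had a count somewhere, with at most 5 in any library. Across all type II keratins the summed level was 10.2 ± 1.30 CPM (SD, n = 3) with empty vector, 25.7 ± 10.5 with CIC::DUX4 and 10.1 ± 2.63 with CIC::NUTM1. Type I summed to 92.8 ± 4.14, 117 ± 10.6 and 131 ± 8.71 CPM in the same order. The higher type I sum with CIC::NUTM1 lay in KRT20: all keratins other than KRT20 summed to 102 ± 4.42 CPM there and to 103 ± 4.40 with empty vector.

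KRT18, KRT10 and KRT222, the tested type I keratins that were present with empty vector, were not called in any comparison. KRT18 (chromosome 12, 52948855 to 52952906) had 63.1, 61.9 and 62.5 CPM with empty vector, 71.8, 58.0 and 66.3 with CIC::DUX4, and 55.4, 60.9 and 55.0 with CIC::NUTM1. The CIC::NUTM1 libraries were all below the empty vector libraries, as were those of 12.9% of all tested genes, and the log2 difference was -0.13 ± 0.08 (SE, adjusted p = 0.355). For CIC::DUX4 it was 0.07 ± 0.08 (adjusted p = 0.745), and it turned to -0.0105 without the first CIC::DUX4 library. So KRT8 was called with CIC::DUX4 while its partner KRT18 was not, and the difference between these 2 genes was not tested.

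KRT10, of the upper layers of the epidermis (chromosome 17, 40818117 to 40822614), had 33.8, 26.4 and 29.2 CPM with empty vector, 28.7, 31.5 and 40.8 with CIC::DUX4, and 30.4, 25.8 and 26.3 with CIC::NUTM1. The groups overlapped, with log2 differences of 0.18 ± 0.12 (SE, adjusted p = 0.474) and -0.11 ± 0.12 (adjusted p = 0.628). KRT222, a truncated keratin-like gene at the edge of the cluster (40654665 to 40665177), had 5 to 18 counts per library in all groups. Its log2 differences were 0.17 ± 0.59 (adjusted p = 0.925) and 0.39 ± 0.59 (adjusted p = 0.734). KRT10, KRT12, KRT13, KRT23 and KRT37 each overlap a gene on the other strand in GENCODE 29, KRT8 and KRT18 overlap each other on opposite strands, and KRT222 overlaps a gene on its own strand. KRT7 overlaps genes on both strands. Whether strand was used in counting is not given in the sources used here, so reads of such partners may not be told apart. KRT20, KRT25 and KRT31 overlap no other gene there.

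Compared directly, CIC::NUTM1 had 2 keratins higher than CIC::DUX4 (KRT20 and KRT25) and 2 lower (KRT8 and KRT37), where 4.97% of all tested genes were higher and 1.64% lower. KRT25 and KRT37 passed the filter on low counts only through the fusion group in which they were higher. Their calls here are descriptions and lend no support. The other 5 tested keratins did not pass. For KRT18 the log2 difference was -0.19 (adjusted p = 0.207), for KRT10 -0.29 ± 0.12 (SE, adjusted p = 0.198) and for KRT222 0.23 (adjusted p = 0.895). KRT20 was the only one of the 4 called in every fit that left out 1 library, with an adjusted p of at most 0.00295.

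Keratins work inside a network of other intermediate filaments and of linker proteins that anchor filaments to junctions. Of 16 other intermediate filament genes 14 were tested: 0 rose and 2 fell with CIC::DUX4, where 6.96% of all tested genes were higher and 1.27% lower, and 1 rose and 3 fell with CIC::NUTM1, where 11.5% were higher and 3.83% lower. For CIC::DUX4, 1 gene was higher at an unadjusted p under 0.05, DESeq2 called 1 higher and limma-trend 0. Vimentin (VIM), the filament of mesenchymal cells, rose with CIC::NUTM1 from 573 ± 22.6 to 710 ± 37.1 CPM (SD, n = 3, adjusted p = 0.000111), and its level with CIC::DUX4 was 634 ± 7.56 CPM (adjusted p = 0.0979). Among the neurofilament genes NEFL fell with both fusions, from 197 ± 11.6 CPM to 143 ± 7.40 with CIC::DUX4 (adjusted p = 1.51e-05) and 166 ± 8.52 with CIC::NUTM1 (adjusted p = 0.0104). NEFM also fell with both, from 567 ± 87.0 CPM to 360 ± 16.0 (adjusted p = 0.014) and 347 ± 53.9 (adjusted p = 0.00572). NEFH, the heavy chain, was not called, with log2 differences of 0.76 ± 0.60 (SE, adjusted p = 0.544) and 0.57 ± 0.61 (adjusted p = 0.607). INA, a further neuronal filament, fell from 20.2 ± 1.24 CPM (SD, n = 3) to 15.5 ± 0.498 with CIC::NUTM1 (adjusted p = 0.0269).

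Between the fusions NEFL (log2 0.22 ± 0.07, SE, adjusted p = 0.0432) and the nuclear lamin LMNB2 (log2 0.19 ± 0.06, adjusted p = 0.0431) were higher with CIC::NUTM1, and nestin (NES, log2 -0.84 ± 0.21, adjusted p = 0.0148) and INA (log2 -0.38 ± 0.12, adjusted p = 0.0497) lower. Several of these calls rest on few libraries. Of the 6 fits that each left out 1 library, the call was kept in 3 for NEFM with CIC::DUX4 (adjusted p up to 0.0601), in 5 for NEFM and 5 for NEFL with CIC::NUTM1 (up to 0.0579 and 0.0844) and in 3 for INA with CIC::NUTM1 (up to 0.104). Between the fusions it was kept in 1 for NEFL (up to 0.206), 2 for LMNB2 (up to 0.211), 3 for NES (up to 0.192) and 0 for INA (0.0553 to 0.189). The median log2 change of the 14 was -0.06 for CIC::DUX4 and -0.03 for CIC::NUTM1, beside 0.00 over all tested genes in both comparisons.

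Of 21 linker and desmosome genes 16 were tested, and each fusion had 2 higher and 3 lower, against the shares of all tested genes given for the filament list (6.96% and 1.27% with CIC::DUX4, 11.5% and 3.83% with CIC::NUTM1). Dystonin (DST), a plakin that ties keratins to hemidesmosomes, averaged 111, 167 and 280 CPM with empty vector, CIC::DUX4 and CIC::NUTM1. It rose with CIC::NUTM1 (log2 1.33 ± 0.15, SE, adjusted p = 0.000183), a call kept in all 6 fits that left out 1 library. Its call with CIC::DUX4 (log2 0.59 ± 0.15, adjusted p = 0.04) was kept in 1 of 6 such fits (adjusted p up to 0.111), and that between fusions (log2 0.74 ± 0.14, adjusted p = 0.0148) in 3 of 6 (up to 0.0823). Desmoglein 1 (DSG1), a desmosomal cadherin of the epidermis, was at 0 with empty vector and reached 0.665 ± 0.0533 and 0.905 ± 0.632 CPM (SD, n = 3, adjusted p = 0.000533 and 0.000118). It passed the filter only through the fusion groups.

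Desmoplakin (DSP), which binds keratins at the desmosome, was called lower with CIC::DUX4 (log2 -0.29 ± 0.09, SE, adjusted p = 0.0443), as was the desmosomal cadherin DSC3 (log2 -0.28 ± 0.09, adjusted p = 0.0395). Each of these calls was lost in 4 of 6 fits that left out 1 library (adjusted p up to 0.20 and 0.249). The desmosomal cadherin DSG2 was called lower with CIC::DUX4 (log2 -0.26 ± 0.06, adjusted p = 0.00865) and with CIC::NUTM1 (log2 -0.23 ± 0.06, adjusted p = 0.0149). With 1 library left out, 0 to 4 genes of the list were called lower with CIC::DUX4 and 1 to 4 with CIC::NUTM1. With CIC::NUTM1, FAM83H, which acts on keratin organisation (log2 -0.37 ± 0.10, adjusted p = 0.00984), and plakoglobin (JUP, log2 -0.29 ± 0.08, adjusted p = 0.0186) fell, with calls kept in 5 and 4 of 6 fits (adjusted p up to 0.0506 and 0.112). PERP, a desmosomal membrane protein, was higher in the CIC::NUTM1 group than in that of CIC::DUX4 (log2 0.32 ± 0.07, adjusted p = 0.0049; kept in 5 of 6 fits, up to 0.0589). Plectin (PLEC), a linker between filament types, had 216 ± 19.6, 183 ± 16.9 and 199 ± 20.8 CPM (SD, n = 3) and was not called. The median log2 change of the 16 was -0.19 for CIC::DUX4 and -0.08 for CIC::NUTM1.

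**Figure D5:**
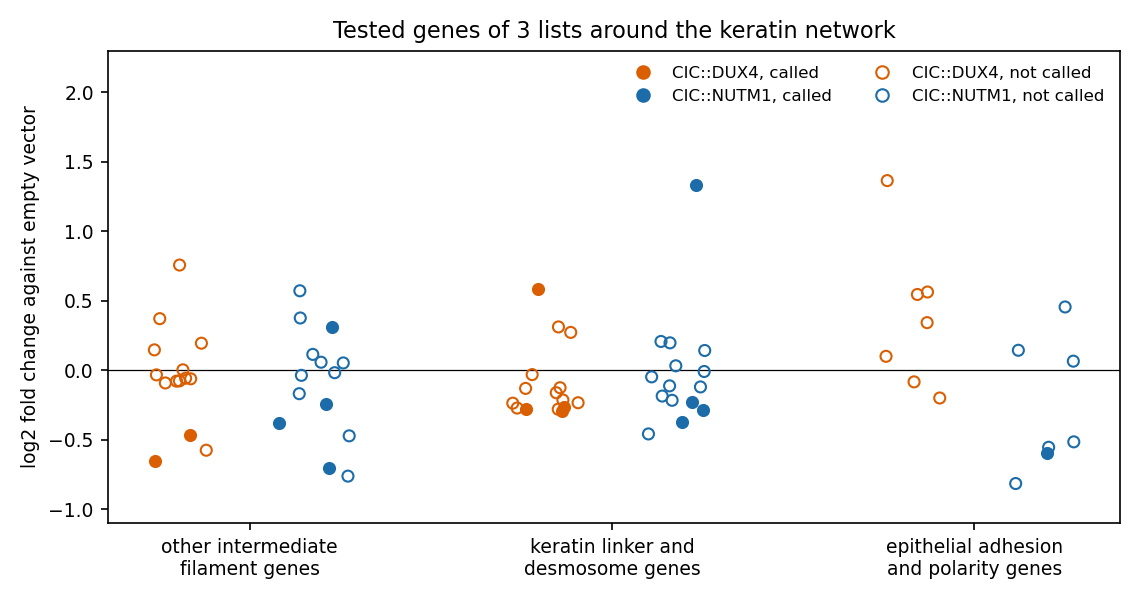
Log2 fold change of the tested genes of 3 lists (other intermediate filaments, keratin linkers and desmosomes, epithelial adhesion and polarity) for each fusion against empty vector, with 1 circle per gene, filled where the gene was called. DSG1 is left out because it is at 0 with empty vector. Among called genes DST lies furthest above 0, at 0.59 for CIC::DUX4 and 1.33 for CIC::NUTM1, and NEFM furthest below, at -0.65 and -0.70.

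Of 15 epithelial adhesion and polarity genes 7 were tested, beside the shares of all tested genes called (6.96% higher and 1.27% lower, then 11.5% and 3.83%): 0 were called with CIC::DUX4, and 0 rose and 1 fell with CIC::NUTM1, the splicing factor ESRP2 (log2 -0.60 ± 0.16, SE, adjusted p = 0.0104). At an unadjusted p under 0.05, 2 were higher for CIC::DUX4 and 0 for CIC::NUTM1. The summed level of the list was 21.0 to 22.2 CPM with empty vector, 20.5 to 36.8 with CIC::DUX4 and 13.0 to 19.9 with CIC::NUTM1, and the highest value was that of the first CIC::DUX4 library.

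Genes of the cell types in which KRT20 is normally found were described in the same way, each list with few tested members. Of 15 intestinal markers 5 were tested, with 2 higher and 1 lower for CIC::DUX4 and 4 higher and 1 lower for CIC::NUTM1 (over all tested genes 6.96% and 1.27%, and 11.5% and 3.83%). MUC2, SLC26A3 and HNF4A had 1, 0 and 4 counts in the 3 empty vector libraries together and passed the filter only through the fusion groups. A difference between groups was therefore built in, and the count lends no support. The mucin MUC2 rose with CIC::NUTM1 to 2.10 ± 0.653 CPM (SD, n = 3, adjusted p = 3.55e-06) and was higher there than with CIC::DUX4 (0.226 ± 0.166 CPM, adjusted p = 0.00162). With CIC::DUX4 against empty vector MUC2 was not called (adjusted p = 0.0553). The transporter SLC26A3 rose from 0 to 0.482 ± 0.334 and 0.608 ± 0.268 CPM (adjusted p = 0.00237 and 0.000823), and the transcription factor HNF4A to 1.42 ± 0.672 and 0.938 ± 0.558 CPM (adjusted p = 0.000322 and 0.00135). CDX2, the intestinal homeobox factor, was present with empty vector and was called lower with both fusions. With CIC::DUX4 (log2 -0.32 ± 0.09, SE, adjusted p = 0.0229) the call was kept in 3 of 6 fits that left out 1 library (adjusted p up to 0.22). With CIC::NUTM1 the log2 difference was -0.29 ± 0.09 (adjusted p = 0.0268), and such fits called 0 to 1 genes of the list lower. CDX1, FABP1 and SI, which mark differentiated intestinal lining, were at 0 in all 9 libraries. The median log2 change of the 5, with genes at the floor set to their bounds, was 0.84 and 2.27, beside -0.0015 and -9e-04 over all tested genes. As 3 of the 5 passed the filter only through the fusion groups, a positive median was built in and lends no support.

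Of 10 urothelial markers 4 were tested, with 1 higher for CIC::DUX4 and 3 for CIC::NUTM1, where 6.96% and 11.5% of all tested genes were higher. GATA3 rose with CIC::NUTM1 (log2 1.10 ± 0.13, SE, adjusted p = 7.06e-06) and was higher there than with CIC::DUX4 (log2 0.61 ± 0.12, adjusted p = 0.00531). Its call with CIC::DUX4 (log2 0.49 ± 0.13, adjusted p = 0.0221) was lost in 4 of 6 fits that left out 1 library (adjusted p up to 0.116). The nuclear receptor PPARG rose with CIC::NUTM1 (log2 1.02 ± 0.11, adjusted p = 1.11e-07) and was higher there than with CIC::DUX4 (log2 1.11 ± 0.11, adjusted p = 1.36e-07). KLF5 rose with CIC::NUTM1 (log2 0.42 ± 0.11, adjusted p = 0.0102), a call kept in 4 of 6 fits (up to 0.105). The uroplakin UPK3A of umbrella cells was at 0 in every library, and UPK2 had at most 3 counts.

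Of 10 Merkel cell markers 7 were tested, with 1 higher and 1 lower for CIC::DUX4 and 2 higher and 2 lower for CIC::NUTM1, beside 6.96% and 1.27%, and 11.5% and 3.83%, of all tested genes. SOX2 and ISL1 rose with CIC::NUTM1 (log2 1.69 ± 0.17 and 0.90 ± 0.10, SE, adjusted p = 2.63e-05 and 2.17e-07) and were higher there than with CIC::DUX4 (log2 1.30 ± 0.17 and 1.10 ± 0.10, adjusted p = 0.000558 and 5.24e-08). INSM1 fell with CIC::NUTM1 (log2 -0.92 ± 0.18, adjusted p = 0.000542). Its call with CIC::DUX4 (log2 -0.67 ± 0.18, adjusted p = 0.0164) was kept in 3 of 6 fits that left out 1 library (up to 0.129). Chromogranin A (CHGA), a secretory granule protein, was called higher with CIC::DUX4 (log2 1.28 ± 0.32, adjusted p = 0.0107; kept in 3 of 6, up to 0.0747). Synaptophysin (SYP), of synaptic vesicles, was called lower with CIC::NUTM1 against empty vector (log2 -0.35 ± 0.12, adjusted p = 0.0492; kept in 2 of 6, up to 0.204) and against CIC::DUX4 (log2 -0.39 ± 0.12, adjusted p = 0.0474; kept in 0 of 6, 0.0517 to 0.171). Whether any of these genes changed with KRT20 in the same cells was not tested.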

How the data were processed

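PolyA RNA from 9 libraries of 293T cells was sequenced after directional library preparation, per the labels' protocols. Raw counts by Ensembl ID and a table of log2 CPM values are what the authors deposited. The submitters' processing notes name STAR 2.7.10b, R 4.2.2, edgeR 3.40.2 and GRCh38, and the annotation and counting program are not given in the sources used here. Of 62700 genes 62622 had a symbol.

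The test was edgeR 4.0.16 under R 4.3.3 (filterByExpr, TMM, robust quasi-likelihood fit of all 9 libraries, 1 mean per group, Benjamini-Hochberg over 17576 genes, threshold 0.05). SE was taken from the log2 fold change and F. A fold against a group at 0 used 3 counts per library. The deposited log2 CPM values of 15700 matched genes had a Pearson r of 0.99998 with those computed here, a description across genes. Labels say that replicates were transfected on separate days, and p-values measure the spread between these samples. On simulated counts with 200 set changes the fit recovered 95% of them, and 7.32% of its calls were false. These changes lay only in genes above a minimum mean count, and all genes had the same spread. The simulation therefore does not cover keratins near 0 counts.

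Every keratin that passed the filter is named, others only with over 10 counts in a library or as a neighbour of KRT20 within 3 genes, and genes of other lists where called, at most 4 per list and comparison by size, plus VIM, PLEC, DSP and JUP. KRT9, KRT26, KRT33A, KRT34, NEFH, CD3E, DSG2 and the CIC::NUTM1 call of CDX2 were named after their values were seen. So were markers at 0 or near it (CDX1, FABP1, SI, UPK2, UPK3A) and genes of the epithelial list given by library. Members and lists were chosen with earlier results of these data known. Alternatives were other library factors (DESeq2 size factors, library totals, upper quartile), other filters, DESeq2 1.42.0, limma-trend (limma 3.58.1), only the groups compared, a replicate block, each library left out, and pseudogene counts added. Protein sequences were not used here. Transcripts of CIC, DUX4 and NUTM1 were not analysed here. The values of 1 gene counted in the intestinal list are not reported here.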

Additional observations from a re-analysis of the deposited data

How the results depend on the processing

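KRT20 kept its direction and its call in all 3 comparisons under every alternative that gave it a value. A minimum of 10 counts in every library left out the genes at 0 with empty vector, KRT20 included, so it gave them no value. It left 1 keratin higher with CIC::DUX4, 0 with CIC::NUTM1, and 0 higher and 1 lower between fusions. With no filter 10, 8 and 4 keratins were called (higher with CIC::DUX4, higher with CIC::NUTM1, lower between fusions). DESeq2 called 8 higher with CIC::NUTM1, and a fit of only the groups compared called 3 higher with CIC::DUX4, since its filter dropped KRT12, KRT25 and KRT31. For CIC::NUTM1 against empty vector the filter of such a fit dropped KRT37. Leaving out 1 library gave 4 to 7 keratins higher with CIC::DUX4, 5 to 7 with CIC::NUTM1, and 2 to 2 higher and 1 to 1 lower between fusions. Depth limits the low keratins, most of which have under 40 counts per library.

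Replicate numbers showed no clear pairing of the samples. Correlations of deviations ran from -0.05 to 0.10 for same-numbered libraries and from -0.13 to 0.09 for differently numbered ones. Whether equal numbers share a transfection day was not tested. With a replicate block KRT20 had log2 differences of 11.14, 12.72 and 1.57, and no keratin call was lost. The first 2 are set against 0 counts with empty vector, so their size depends on the method. Over the alternatives other than left-out libraries they ran from 7.18 to 11.27 and from 8.76 to 12.82.

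Over all genes, main counts were 1224 higher and 224 lower for CIC::DUX4, 2018 and 673 for CIC::NUTM1, and 874 and 288 between fusions. The strict filter gave 774 higher with CIC::DUX4. Lower with CIC::DUX4 were 380 with no filter and 407 with only the groups compared. Library totals gave 1783 higher and 1138 lower with CIC::NUTM1 and 695 and 437 between fusions, and upper quartile factors 1807 higher and 1124 lower with CIC::NUTM1. Leaving out 1 library gave 805 to 1258 and 60 to 229 for CIC::DUX4, 1625 to 2134 and 278 to 977 for CIC::NUTM1, and 516 to 940 and 156 to 324 between fusions.

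Calls in small lists moved by 1 to 3 genes. For other intermediate filaments, higher with CIC::DUX4 became 1 with no filter and with DESeq2, lower became 1 with the block, higher with CIC::NUTM1 became 2 with no filter and DESeq2. Between fusions, higher became 0 with DESeq2 size factors, library totals, upper quartile or only the groups compared and 1 with DESeq2 or the block, and lower became 1 with no filter, only the groups compared or the block. For linkers, higher with CIC::DUX4 became 1 with the strict filter or the block, lower became 6 with no filter or only the groups compared and 1 with the strict filter, and higher with CIC::NUTM1 became 1 with the strict filter or only the groups compared. For epithelial genes, higher with CIC::DUX4 became 3 with no filter, and lower between fusions 1 with library totals, upper quartile, DESeq2 or limma and 2 with no filter. For intestinal markers, higher became 0 and 1 with CIC::DUX4 (strict filter, only the groups compared), 1 and 2 with CIC::NUTM1, and 1 between fusions with the strict filter. For Merkel markers, higher with CIC::DUX4 became 2 with no filter, only the groups compared or the block, lower with CIC::NUTM1 became 1 with the strict filter, limma or only the groups compared, and lower between fusions became 0 with no filter or only the groups compared. Leaving out 1 library gave, for filaments, 1 to 2 lower with CIC::DUX4, 1 to 4 lower with CIC::NUTM1, and 0 to 2 higher and 0 to 1 lower between fusions. For linkers it gave 1 to 2 higher and 0 to 4 lower, 2 to 3 higher and 1 to 4 lower, and 1 to 2 higher between fusions. For epithelial genes it gave 0 to 1 higher with CIC::DUX4. For intestinal markers it gave 2 to 3 higher and 0 to 1 lower with CIC::DUX4 and 0 to 1 lower with CIC::NUTM1. For urothelial markers it gave 0 to 1, 2 to 3 and 2 to 3 higher. For Merkel markers it gave 0 to 1 higher and 0 to 1 lower, 1 to 2 lower, and 0 to 0 lower between fusions. The cause of these moves was not tested.

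Uncalled values that changed sign were KRT18 with CIC::DUX4 (-0.0105 without CIC::DUX4 replicate 1, range over left-out libraries -0.0105 to 0.14), KRT222 with CIC::DUX4 (-0.0276 without empty vector replicate 1, range -0.0276 to 0.34) and KRT8 with CIC::NUTM1 (0.0748 without empty vector replicate 3, range -0.19 to 0.14, and 0.31 with pseudogenes added). Between fusions these were DSP (-0.0070 without CIC::NUTM1 replicate 3, range -0.0070 to 0.18) and JUP (0.0069 without CIC::DUX4 replicate 3, range -0.14 to 0.0069).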

Other observations

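Other keratins stayed near the floor of detection. KRT26, of the inner root sheath, had 0 counts with empty vector, 1, 4 and 0 with CIC::DUX4, and 4, 4 and 5 with CIC::NUTM1. KRT9, the keratin of palm and sole skin, had 10, 6 and 0 with CIC::DUX4 and 4, 0 and 3 with CIC::NUTM1, and 0 with empty vector. The hair keratin KRT33A had 5, 1 and 5 and then 3, 0 and 7, again with 0 in the empty vector libraries. None of these 3 genes passed the filter on low counts.

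Genes that mark blood and stromal cells were mixed. Of 8 such genes 5 were tested, with 2 higher for CIC::DUX4 and 2 higher and 1 lower for CIC::NUTM1 (over all tested genes 6.96% higher, and 11.5% higher and 3.83% lower). The 2 higher genes, PTPRC and ITGAM, passed the filter only through the fusion groups and had to differ, so this count lends no support. Their CIC::DUX4 calls were each kept in 3 of 6 fits that left out 1 library. The lower gene was the collagen chain COL1A1 (log2 -0.34 ± 0.12, SE, edgeR adjusted p = 0.0434), a call kept in 2 of 6 such fits. The leukocyte antigen PTPRC had 0, 2 and 0 counts with empty vector, 24, 3 and 3 with CIC::DUX4, and 24, 16 and 13 with CIC::NUTM1. The integrin ITGAM had 1 count in each empty vector library, 21, 8 and 9 with CIC::DUX4, and 18, 5 and 26 with CIC::NUTM1. The T cell gene CD3E was at 0 in 8 of 9 libraries and had 5 counts in the first CIC::DUX4 library.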
